A study of Drosophila melanogaster with 2 samples.

Results

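The intergenic peaks described here are places outside genes, and away from transcription start sites (TSSs), at which the product of CG11085 was called bound in whole Drosophila melanogaster embryos of 0 to 24 hours. The embryos came from transgenic flies, strain CG11085-GFP, that carry CG11085 fused to enhanced green fluorescent protein (eGFP). The fusion was precipitated with an antibody against GFP and the DNA was sequenced (ChIP-seq). The series holds 1 group of 2 biological replicates, and both carry the fusion. No library from flies without the fusion was analysed here, so the background at these sites is not measured. Peaks were taken from the conservative list, which keeps regions that rank alike in both replicates by the irreproducible discovery rate (IDR). A peak was a member when its summit lay outside every annotated gene and over 500 bp from the nearest TSS of any gene, transposable elements not counted as genes. This gave 299 members among 2610 peaks on the chromosome arms, or 11.5% (95% Wilson interval 10.3 to 12.7), while 1444 peaks lay within 500 bp of a TSS (promoter peaks) and 867 lay in genes farther from a TSS (gene-body peaks). The rule within the list used positions alone, but the list itself keeps peaks by their rank of signal in both replicates, so the signals of the members are limited by that choice. Every member holds 1 place in the list, and 19 members share a region of a replicate with a stronger peak of the list, so those 19 do not stand for separate regions in that replicate. The embryos were whole and of mixed age, so neither the cell type nor the hour of binding at any site is known.

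CG11085 encodes a homeodomain protein. Homeodomains bind DNA, and many recognise short words with the letters TAAT at their core. Intergenic DNA of the fly holds enhancers, which raise transcription of genes at a distance, and insulators, which limit contact between neighbouring stretches of chromatin. Insulator proteins include CTCF and Su(Hw), both zinc-finger proteins that recognise longer words than a homeodomain does.

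The sequences at 4 of the strongest members are shown, picked because each holds a marked word. Each runs 60 bp to both sides of the summit on the plus strand of dm6 (RefSeq Release 6 copy of the same assembly). Capitals mark GGTGGAGCC in the first and the last, TGCATAC (a core of the Su(Hw) site) in the second, and TAATTG or its reverse complement (a homeodomain word) in the third. Other listed words are left unmarked, such as TTTATG, also a homeodomain word, which the second window holds too. Windows of the same size at CG4702 (signal 612), lncRNA:CR45643 (589.6), Cpr76Ba (511) and lncRNA:CR45695 (369.6) held none of the marked words and are not shown.
C15 to sp3, chr3R:21520301-21520421, plus strand: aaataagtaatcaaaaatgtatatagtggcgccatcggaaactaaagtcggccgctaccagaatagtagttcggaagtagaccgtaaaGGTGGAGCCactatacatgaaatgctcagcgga
CG17896 to CG17778, chrX:493936-494056, plus strand: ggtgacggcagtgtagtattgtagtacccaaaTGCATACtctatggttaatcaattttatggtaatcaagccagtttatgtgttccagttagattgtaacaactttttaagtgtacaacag
upstream of foxo, chr3R:14053545-14053665, plus strand: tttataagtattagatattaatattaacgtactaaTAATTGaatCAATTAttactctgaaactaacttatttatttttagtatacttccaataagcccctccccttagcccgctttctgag
CG13970 to CG10651, chr2L:20120998-20121118, plus strand: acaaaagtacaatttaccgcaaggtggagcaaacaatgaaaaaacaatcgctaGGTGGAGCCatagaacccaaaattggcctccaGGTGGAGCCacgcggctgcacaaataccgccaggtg
The peak between C15 and sp3 and the peak between CG13970 and CG10651 thus share the word GGTGGAGCC, which occurs 1 time in the first window and 2 times in the other. That word was chosen after these windows were seen, and it lay within 50 bp of the summit in 2 of 299 members (0.669%, interval 0.184 to 2.41), 1 of 1444 promoter peaks and 2 of 867 gene-body peaks. The next 6 stretches are shown for GGTGGCG, a part of the CTCF site, or for a longer form that resembles it. No binding of CTCF was measured. Each is read 5′ to 3′ on the strand given. The first 3 carry, in capitals, GGTGGCG, which had the largest difference in percentage points between members' summits and flanks among 27 listed words. The last 3 do not hold GGTGGCG and carry, in capitals, AGNTGNCGC, a form chosen after the members' windows were seen. With 1 more base on each side of the capitals, the first 3 also match AGNTGNCGC.
jp, chr2L:9567473-9567503, minus strand: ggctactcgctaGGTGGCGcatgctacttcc
soti to cv-c, chr3R:14391375-14391405, minus strand: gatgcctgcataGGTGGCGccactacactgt
sbr, chrX:10832553-10832583, minus strand: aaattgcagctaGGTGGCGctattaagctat
Sox21a to Sox21b, chr3L:14111632-14111664, plus strand: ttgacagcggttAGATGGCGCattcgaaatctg
Glut3 to lncRNA:CR45750, chr3R:16798903-16798935, minus strand: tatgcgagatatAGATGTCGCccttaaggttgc
Cad89D to Gr89a, chr3R:16497511-16497543, minus strand: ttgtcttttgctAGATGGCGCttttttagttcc

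The strongest member lay between C15, a homeobox gene, and sp3, 567 bp upstream of a TSS of sp3. Its signal, a value of the authors whose scale is not stated, was 978 in the pooled reads, 612 in replicate 1 and 368 in replicate 2. The second lay on arm 2R between Su(z)2, a Polycomb group gene, and CG13323, 11910 bp from the nearest TSS, with a signal of 782, and of 434 and 335 in replicates 1 and 2. Both were higher in replicate 1, as were all of the 15 strongest members. The third, between CG17896 and CG17778, had signals of 680.2 pooled, 361 in replicate 1 and 313 in replicate 2. The next lay between dpr17, of a family of cell-surface immunoglobulin proteins, and CG4702, with signals of 612, 346 and 273 in the same order. The fifth lay 899 bp upstream of lncRNA:CR45643 and 3155 bp upstream of tara, which encodes a transcriptional co-regulator, with signals of 589.6, 311 and 271. These 5 peaks ranged over 1.15 to 1.66 in their ratio of replicate 1 to replicate 2, and all were in the lists that the authors called within each replicate.

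The next members by signal were near genes of unlike roles. The peak 3340 bp upstream of foxo, which encodes a forkhead factor of insulin signalling, had signals of 518 pooled, 292 in replicate 1 and 219 in replicate 2. The peak 1600 bp downstream of the TSS of Cpr76Ba, a cuticle protein gene, had 511, 273 and 232. The peak 648 bp upstream of CG14762 had 499.7, 262 and 247, the most even pair among the 15. The peak between blw, which encodes a subunit of the ATP synthase, and CycB, the mitotic cyclin gene, had 454, 263 and 197. The peak between CG13970 and CG10651 lay 13865 bp from a TSS and had 412, 251 and 161. The remaining 5 of the 15 had pooled signals from 315 to 369.6. They comprised 2 peaks upstream of chinmo, which encodes a BTB zinc-finger factor, 1 upstream of CG43245, 1 between CG7484 and Crtc, the gene of a CREB coactivator, and 1 upstream of stck, the gene of an integrin adaptor. No member of these 15 shared a region of a replicate with a stronger peak.

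Over all 299 members, the median pooled signal was 109 (quartiles 87.8 and 170.5). Promoter peaks had a median of 138 (98.8 to 209) and gene-body peaks of 113 (86.5 to 159), so the quartile ranges of the 3 classes overlapped. Median signals changed little with distance from a TSS. The median was 107 for the 69 members at up to 1000 bp, 116 for 64 members at up to 2000 bp, 107 for 91 at up to 5000 bp, 104 for 44 at up to 10000 bp and 109.99 for 31 beyond. Members upstream of the nearest TSS (192) had a median of 109.6 and those downstream (107) of 107. The 19 members that share a region with a stronger peak had a median of 17.4, and without them the lowest signal of any member was 54.3. The lowest was 2.49, next to nrv1, where the replicate values of 40.8 and 89.5 belong to a region shared with a member of 86.7 at 233 bp.

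Replicate 1 gave the higher signal at 271 of 297 members with both values, 91.2%, against 91.3% of all peaks on the arms. The median was 67.0 in replicate 1 (quartiles 52.2 and 99.6) and 47.6 in replicate 2 (33.6 and 73.1), and the ratio had a median of 1.48 (1.18 to 1.80). Ratios ran from 0.456 to 4.59. The highest belonged to a peak 699 bp upstream of sm, with 153 in replicate 1 and 33.3 in replicate 2, followed by peaks near Gdi (94.5 and 26.0) and alpha-Est9 (140.4 and 41.2). A peak near lncRNA:CR46075 (99.1 and 29.7) and one near jp (230.4 and 75.5) completed the 5 highest. The lowest belonged to the pair of peaks upstream of nrv1, which share their replicate values (40.8 and 89.5). A peak near CG43131 (51.01 and 89.7), one near lncRNA:CR43334 (40.4 and 62.6) and one near CheB93b (46.5 and 69.0) came next. As a description over members that passed a threshold on both replicates, Spearman's rho between the replicate signals was 0.650 and Pearson's r of their log10 values 0.791 (n = 297). The same values were 0.763 and 0.854 over promoter peaks and 0.626 and 0.799 over gene-body peaks.

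**Figure D1:**
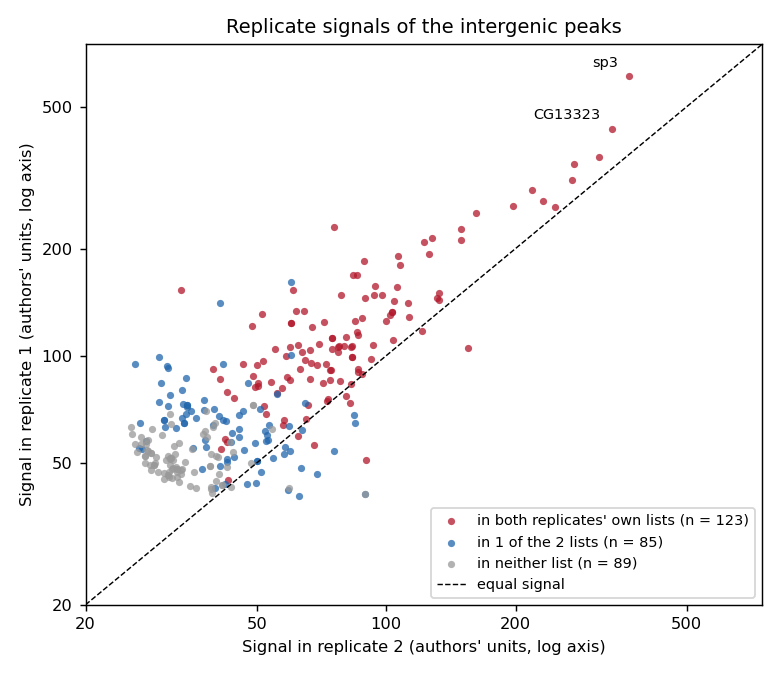
Signal of each intergenic peak in replicate 1 (vertical) against replicate 2 (horizontal), both on log axes in the authors' units, for the 297 members with both values. Points are coloured by presence in the replicates' own lists, and most lie above the dashed line of equal signal, which 271 members exceed.

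The authors also called peaks within each replicate. Of the members, 167 overlapped the list of replicate 1 by at least 1 bp (55.9%, interval 50.2 to 61.4), against 66.1% of all peaks on the arms. The list of replicate 2 overlapped 164 members (54.8%, 49.2 to 60.4), against 61.9% of all. Both lists held 123 members (41.1%, 35.7 to 46.8), against 50.5% of all, and neither held 91 (30.4%, 25.5 to 35.9), against 22.5% of all. Among promoter peaks 57.8% were in both lists (55.2 to 60.3) and 17.7% in neither, and among gene-body peaks 41.6% and 27.8%. The members' share in both lists therefore lay below that of promoter peaks, with intervals that do not overlap, and beside that of gene-body peaks. The members in both lists had a median pooled signal of 177, those in the list of replicate 1 alone 106, those in the list of replicate 2 alone 105, and those in neither 81.9. Depth is unknown, and these intervals cover counting error over peaks only.

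The members closest to the threshold had −log10 global IDR values of 2.00 near CG43402 (signal 83.4) and 2.02 near asRNA:CR44818 (85.9). The next 3 were near tRNA:Ile-AAT-1-9 (57.6), CG7548 (83.0) and IP3K1 (91.4). The nearest intergenic regions that failed it had signals of 63.6 near Mp, 71.1 near lncRNA:CR45383 and 84.1 near lncRNA:CR45258, within the range of the members just inside. By distance, the members nearest the limit lay 501 bp upstream of CG17896 and CG34054, 522 bp upstream of Dyro and Npc2b, and 529 bp upstream of lncRNA:CR44828. Peaks just outside it lay 498 bp upstream of CG10479, 492 bp upstream of lncRNA:CR45277 and 489 bp upstream of PHDP. In all, 25 members lay at up to 600 bp.

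The distance from a member's summit to the nearest TSS had a median of 2414 bp (quartiles 1107 and 4990). The rule fixes the lower end of this range at over 500 bp, so the members were set beside 36365 intergenic regions that were ranked by the authors, met the same rule on position and did not pass the IDR threshold. Of all ranked intergenic regions, 0.815% became members, against 1.83% of ranked regions of any position becoming peaks. The median distance of the regions that did not pass was 4843 bp (2215 to 10753). Members at up to 1000 bp made up 23.1% (18.7 to 28.2) against 7.73% of those regions, and members beyond 10 kb and up to 50 kb 9.36% (6.56 to 13.2) against 21.3%. The nearest TSS was that of a protein-coding gene at 210 members, of a non-coding RNA at 79, of a tRNA at 6, of a pseudogene at 3 and of a snoRNA at 1. The summit lay upstream of that TSS at 192 members (64.2%, 58.6 to 69.4), against 57.7% of regions that did not pass. The space around the summit was bounded by genes pointing away from each other at 83 members (27.8%, 23.0 to 33.1), against 22.4%. It was bounded by genes in tandem at 146 (48.8%, against 50.3%) and by genes pointing at each other at 69 (23.1%, against 25.5%). The spaces were shorter, with a median length of 8373.5 bp against 16807 bp.

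**Figure D2:**
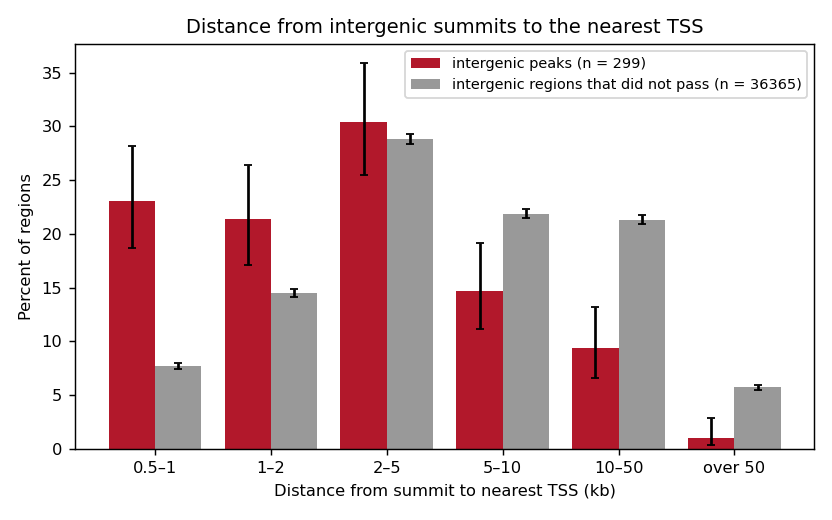
Percent of the 299 intergenic peaks and of the 36365 ranked intergenic regions that did not pass, by distance from the summit to the nearest TSS in kb. Bars start at 0 with 95% Wilson intervals, and the members' share is higher up to 2 kb and lower beyond 5 kb.

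The 5 members farthest from any TSS lay mostly at the ends of arms. The farthest was 393773 bp upstream of Myo81F, with signals of 63.2 in replicate 1 and 39.5 in replicate 2. A pair of members shared the space between Dbp80 and lncRNA:CR46482, 198215 and 121319 bp from CR14578, with 55.5 and 38.2 at the first and 63.9 and 53.5 at the second. The next lay 46160 bp from ATbp (98.1 and 92.0). In each of these 4 windows of 100 bp to both sides, over 60% of the 32-base words occurred more than once on the arms. Reads there have less unique placement, and its part in these peaks was not tested. The fifth lay 37662 bp from a TSS of bab2, in the space between bab1 and bab2, which encode BTB factors of leg and abdomen patterning, with 59.0 and 38.4 and no repeated word.

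By arm, 3L held 90 members, 2L 64, 3R 60, 2R 48 and X 37, and chromosome 4 had 0. Members made up 17.2% of the peaks on 3L (14.2 to 20.7) and 7.34% of those on X (5.37 to 9.96). Per megabase of DNA that meets the rule on position, 3L held 9.92 members, 2L 9.53, 3R 7.82, X 6.97 and 2R 6.45. Median signals of the arms ran from 103 on 3R to 122 on X. The nearest member to the CG11085 gene itself lay 134214 bp away on X, with a signal of 175.

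The members lay in 242 intergenic spaces, and 39 of these held more than 1, with 96 members in all. The space of 75.05 kb between NijA, a ninjurin gene, and CG43245 held 6, of which 2 lie in the same replicate region as a stronger one. Its strongest peak had signals of 367 pooled, 211 in replicate 1 and 149 in replicate 2, and the others lay in 2 groups about it. The space of 17.8 kb between scyl, which encodes a restrainer of TOR signalling, and lncRNA:CR44720 held 5, with pooled signals from 72.0 to 166 and all within 6.16 kb of the end of scyl. The space of 20.9 kb between lncRNA:CR44603 and lncRNA:CR45695, upstream of chinmo, held 4. There the pooled signals were 315, 188, 369.6 and 295, each above the third quartile of all members, and the summits lay 7796 to 18404 bp upstream of the chinmo TSS. In replicate 1 these 4 had 193, 133, 227 and 191, and in replicate 2 they had 126, 61.7, 149 and 107, so each was higher in replicate 1. The space between tRNA:Ile-TAT-1-2 and CG13898 also held 4, from 73.1 to 288. The space between CG13321 and Psc, a Polycomb group gene, held 4, of which 2 (222 and 129) do not share a region with a stronger peak.

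**Figure D3:**
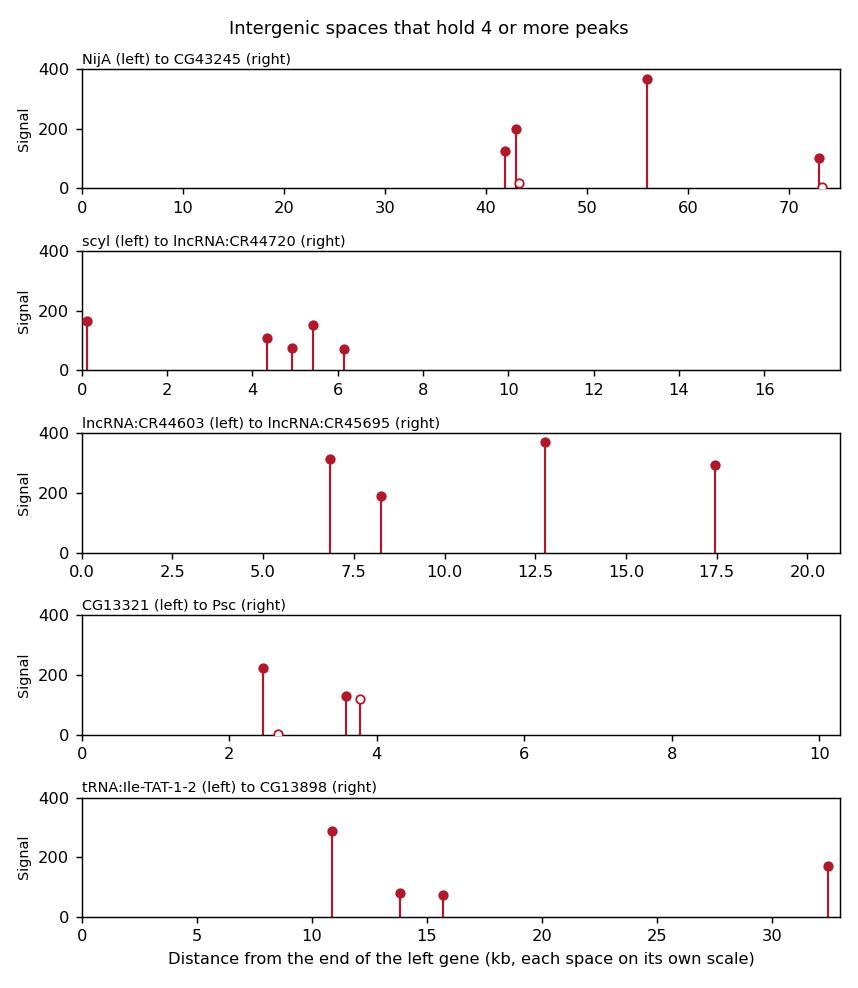
Pooled signal (authors' units) of each intergenic peak in the 5 spaces that hold 4 or more, against distance in kb from the end of the left gene, each space on its own horizontal scale. Open circles mark peaks that lie in the same replicate region as a stronger peak, and the 4 peaks upstream of chinmo are all filled and range from 188 to 369.6.

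Protein-coding genes whose TSS was the nearest to a member were read against 14 lists of genes by role, in which 772 of 784 symbols matched the annotation. The 299 members had 237 distinct such genes, and 27 members (9.03%, 6.28 to 12.8) were next to a gene of any list. Of 75 homeobox genes outside the Hox clusters, 5 were nearest to 8 members (2.68%, 1.36 to 5.19), against 2.93% of intergenic regions that did not pass. They included vvl, a POU homeobox gene, with peaks of 135 and 123 at 33867 and 26264 bp downstream of its TSS. They also included ems, a head gap gene (119, with 62.1 in replicate 1 and 63.6 in replicate 2), and zfh1 (98.8). None of the 8 Hox genes was nearest to a member, and a single peak of 75.05 was bounded by Ubx. Segmentation and dorsoventral genes were nearest to 4 members (1.34%, against 1.04%). These were slp2, a forkhead pair-rule gene (177), ptc, which encodes the Hedgehog receptor (133), Doc2, a T-box gene (118), and odd (99.2, lower in replicate 1 than in replicate 2, with 42.0 and 59.0).

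Wnt, Hedgehog and TGF-beta genes were nearest to 3 members (1.00%, against 0.432%), namely Wnt4 (174, in the space it shares with wg), ptc and fz (124), which encodes a Wnt receptor. Mesoderm and muscle genes were nearest to 5 members (1.67%, against 0.830%), among them mid, a T-box gene (175), bin, a forkhead gene of the visceral mesoderm (114.9), and how, which encodes an RNA-binding protein (69.5). They also included the Doc2 peak (118) named above and a peak at how in a region shared with a stronger one. Without shared regions, 4 of 280 members were left (1.43%, 0.557 to 3.61). Genes of gut, trachea and fat body had 4 (1.34%, against 0.786%), including sim, the midline regulator (89.3), and Lsp1beta, a larval serum protein gene (72.8). The others were the peaks at vvl (135 and 123) already named among the homeobox genes. Proneural and Notch pathway genes had 1, Ser, a Notch ligand gene (94.8). Axon guidance genes also had 1, unc-5, a netrin receptor gene (264, with 184 and 88.8 in replicates 1 and 2). Receptor tyrosine kinase genes had aop, an ETS repressor gene (133), cuticle protein genes had Cpr76Ba (511) and chemoreceptor genes had Gr89a (211). Ribosomal protein genes and ecdysone and nuclear receptor genes had 0 of 299, which allows a share of up to 1.00% (3 counts of 299). For each of these lists the members' interval held the share of the regions that did not pass, except for the 179 chemoreceptor genes (0.334%, 0.0591 to 1.87, against 2.06%). Chemoreceptor genes made up 1.28% of all protein-coding genes, within that interval. The share of all protein-coding genes lay below the members' interval for homeobox genes outside the Hox clusters (0.538%) and segmentation and dorsoventral genes (0.244%). The same held for Wnt, Hedgehog and TGF-beta genes (0.244%), mesoderm and muscle genes (0.280%), and genes of gut, trachea and fat body (0.165%). The peaks at vvl, ptc and Doc2 each count in more than 1 of these lists, so the shares are not separate results. A share of genes takes no account of the length of the spaces beside them.

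Chromatin genes were nearest to 2 members (0.669%, 0.184 to 2.41), ph-d (220.3) and lola (111), against 0.0605% of intergenic regions that did not pass. They made up 0.301% of all protein-coding genes, which lies within the members' interval. When either gene bounding the space was counted, 7 members (2.34%, 1.14 to 4.75, against 0.113%) had a chromatin gene beside them. Of these 7, 2 lie in the same replicate region as a stronger one, which leaves 5 of 280 members (1.79%, 0.765 to 4.11) in 4 spaces. All but the one at lola were at pairs of neighbouring Polycomb group genes. The 5 at the Psc and Su(z)2 genes comprised the peak of 782 and the 4 between CG13321 and Psc, and 1 lay between ph-d and ph-p. By the same count, homeobox genes outside the Hox clusters bounded 13 members (4.35%, against 4.15%), or 11 of 280 (3.93%) without shared regions, including the strongest member of all at C15 and peaks at otp (141), Dll (96.7) and repo (68.4).

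The DNA at the summits of members was poorer in G and C than the DNA beside it. The median share of G and C bases within 50 bp of the summit was 36.6% (29.7 to 43.6), against a mean of 42.0% in windows 250 bp to each side. Promoter peaks had 33.7% against 42.9%, and gene-body peaks 33.7% against 43.5%. In intergenic regions that did not pass the order was the opposite, with 45.5% at the summit and 42.0% beside it. Summits in soft-masked sequence, which marks repeats and simple words, numbered 47 among members (15.7%, 12.03 to 20.3), against 23.6% of promoter peaks and 17.6% of intergenic regions that did not pass. A transposable element held 4 summits (1.34%, 0.521 to 3.39), against 3.72% of the latter. A 32-base word that occurs again on the arms lay within 100 bp of 14 members (4.68%, 2.81 to 7.70), against 0.970% of promoter peaks and 1.27% of gene-body peaks. The 14 had a median signal of 103, and 3 of them were in both replicates' lists.

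**Figure D4:**
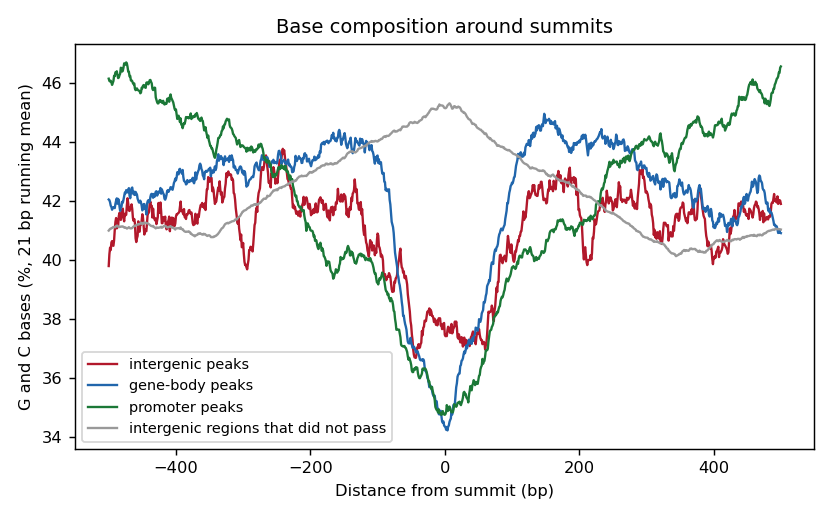
Share of G and C bases (21 bp running mean, vertical axis from 34 to 46%) against distance from the summit in bp, for the intergenic peaks, the other 2 classes of peak and ranked intergenic regions that did not pass. The members dip to 36.7% near the summit, and the regions that did not pass rise to 45.3%.

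On both strands, 27 words were counted at up to 50 bp from each summit. They were listed with earlier results of these data known, so their ranks are descriptions. GGTGGCG had the largest excess over flanking windows of the same size, in percentage points. It lay at 15 of 299 members (5.02%, interval 3.06 to 8.11) and in 1.67% of their flanks (0.911 to 3.05). Without the members that share a region with a stronger peak, it lay at 12 of 280 (4.29%, 2.47 to 7.34). Their flanks held it in 1.61% (0.848 to 3.03), and these 2 intervals overlap. The share was 1.66% at promoter peaks (flanks 1.28%), 2.65% at gene-body peaks (flanks 1.15%) and 1.26% at intergenic regions that did not pass (flanks 0.928%). In the lists called within replicates 1 and 2, which hold 182 and 193 intergenic peaks, it was 4.95% (flanks 0.549%) and 5.70% (flanks 0.777%). GGTGGCG is part of the site of CTCF, an insulator protein. TGCATAC, the core of the Su(Hw) site, lay at 8 members (2.68%, 1.36 to 5.19; flanks 0.669%), including the third strongest. The ETS word CCGGAAG lay at 4 members (1.34%, 0.521 to 3.39) and in 0 of 598 flanks (interval 0 to 0.638), and these 2 intervals overlap. It lay at 0 of 867 gene-body peaks (flanks 0.288%) and at 0.762% of promoter peaks (flanks 0.589%).

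Of 6 homeodomain words, 4 were lower and 2 higher at the members' summits than beside them, and for each the intervals of summit and flank overlapped. TAATTA lay at 14 members (4.68%, 2.81 to 7.70) and in 6.86% of flanks (5.09 to 9.17), and TAATTG at 28 (9.36%, 6.56 to 13.2) and in 11.2%. The other lower words were TAAACG (2.34%; flanks 3.68%) and CAAGTG (5.35%; flanks 7.53%). The higher words were TTTATG (14.05%, 10.6 to 18.4; flanks 12.4%) and TGATNNAT (8.36%, 5.73 to 12.1; flanks 6.19%). Among intergenic peaks of the list of replicate 1, TAATTA lay at 6.04% (flanks 8.52%). In the list of replicate 2 it was higher at the summit, at 7.25% (4.37 to 11.8; flanks 6.22%), so its direction differed between the lists. TAATTG was lower at the summit in both lists (8.79%, flanks 12.6%, and 7.77%, flanks 11.7%). At promoter peaks TAATTA lay at 9.63% of summits (8.21 to 11.3) and in 6.20% of flanks (5.38 to 7.14), and at gene-body peaks at 8.42% (6.75 to 10.5) and in 5.02% (4.09 to 6.15), so both classes had it more often at the summit. TAATTG was likewise higher at the summits of gene-body peaks (12.7%, 10.6 to 15.1; flanks 9.17%, 7.90 to 10.6). The interval of the members' TAATTA share ended below that of promoter peaks. Of words of promoter-bound factors, TATCGAT, the core of the DREF site, lay at 3 members (1.00%; flanks 0.836%) and CGATA, the core of the BEAF-32 site, at 34 (11.4%; flanks 9.36%). GAGAG, the word of the GAGA factor, was lower at the summit than beside it, at 32 members (10.7%, 7.68 to 14.7; flanks 15.1%, 12.4 to 18.1). That was the largest shortfall among the 27 words, and promoter peaks (9.21%; flanks 14.5%) and gene-body peaks (11.4%; flanks 16.3%) also had it less often at the summit. A word missing from these windows says nothing about the factor.

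Among all 2080 words of 6 bases, the members' largest excesses were mostly of words with few G and C bases. AAACTA lay at 14.4% of members and in 4.68% of flanks, AATATA at 19.1% and 10.03%, and ACTAAA at 14.05% and 6.19%. Promoter peaks had AAACTA at 12.3% and AATATA at 23.5% of summits. The word GCGCCA, with 5 G and C bases, lay at 10.4% of members and in 3.51% of flanks, against 5.33% of promoter peaks and 4.61% of gene-body peaks. ATCTAG lay at 7.69% and in 1.34%, and CATCTA at 8.70% and in 2.51%. These 3 words overlap in one longer form, GCGNCANCT, read on the other strand as AGNTGNCGC.

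That form was chosen after the members' windows were seen, so its share at members is a description. It lay at 26 members (8.70%, 6.003 to 12.4) and in 0.836% of flanks (0.358 to 1.92). In peaks that did not enter the choice it lay at 28 gene-body peaks (3.23%, 2.24 to 4.63; flanks 1.04%, 0.658 to 1.63), at 28 promoter peaks (1.94%, 1.34 to 2.79; flanks 1.56%) and at 1.21% of intergenic regions that did not pass (flanks 0.947%). Of the 299 strongest of those regions, 6 held it (2.01%, 0.923 to 4.31). Among 114 intergenic peaks of the authors' larger list that overlap no member, 4 held it (3.51%, 1.37 to 8.68). Either it or GGTGGCG lay at 32 members, and 9 held both. The same bases can match both, as in AGGTGGCGC at jp and sbr, so these 9 need not hold separate sites. The centres of its 35 occurrences within the window lay 2 to 46 bp from the summit, with a median of 22 bp, and 8 members held it more than once. Counted out to 246 bp, it occurred 1.19 times per 1000 members per bp at up to 15 bp, 1.34 at 16 to 50 bp, 0.535 at 51 to 100 bp and 0.100 beyond 100 and up to 150 bp. The form was put together from words ranked by members' summits against flanks 250 bp away, so a fall with distance was built in. At gene-body peaks, which did not enter the choice, the rates over the same ranges were 0.372, 0.412, 0.185 and 0.104. They rose to 0.265 at 151 to 200 bp.

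**Figure D5:**
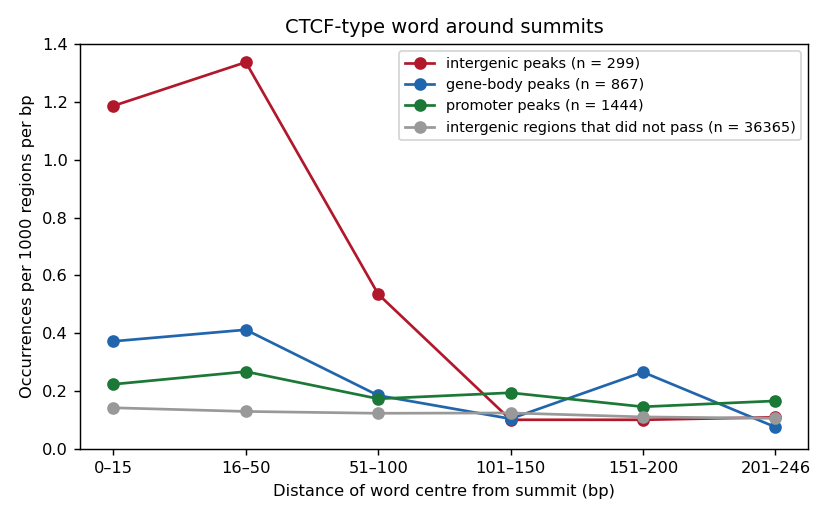
Occurrences of the longer word AGNTGNCGC per 1000 regions per bp (vertical, from 0) by distance of its centre from the summit in bp. The name CTCF-type refers only to its likeness to GGTGGCG, and no binding of CTCF was measured. The intergenic peaks lie at 1.19 and 1.34 within 50 bp and at 0.100 beyond 100 bp, near the level of the regions that did not pass. The word was chosen from the members' own summit and flank windows, so a fall with distance at members was built in.

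The 26 members with the longer form had a median signal of 168 (quartiles 131 and 207), against 106 (84.9 to 160.0) for the other 273. They were in both replicates' lists in 18 cases (69.2%), against 105 of 273 (38.5%). Their median share of G and C bases was 44.6% against 35.6%, and 0 of the 26 had a soft-masked summit, which allows up to 11.5% (3 counts of 26). The part of base composition and of masking in these differences was not tested. The strongest of them was the peak upstream of CG14762 (499.7). Next came jp, a junctophilin gene (300.3), then unc-5 (264), the space between soti and cv-c (259) and the space between Sox21a and Sox21b (239), a pair of Sox factor genes. Others lay between Wnt4 and wg (174), between Chsy and sog (130.2), upstream of Dll (37.0, in a region shared with a stronger member) and next to sim (89.3).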

How the data were processed

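The authors deposited peak files of 1 group of 2 replicates in dm6 coordinates, per the labels. They are thresholded and ranked IDR lists over both replicates and within each. The signal of each peak is as the authors deposited it, in a unit that is not stated, and the pooled signal comes from the lists over both replicates. The score of each peak, at most 1000, and the −log10 of its global IDR are also the authors' deposited values. The threshold of the lists corresponds to a global IDR of 0.01. No aligner or peak caller was named in the labels or headers. Read depth is unknown.

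Genes and TSSs came from Ensembl release 115 (BDGP6.54; 18164 genes without transposable elements, 13945 of them protein-coding). Sequence and soft-masking came from the RefSeq copy of the same assembly. Replicate signals were taken from each replicate's own ranked regions by identical coordinates, found for 297 members in both. Words were counted within 50 bp of the summit and 250 bp to each side. The code was tested on simulated peaks. Comparisons of classes of peaks are descriptions with 95% Wilson intervals over peaks, since peaks of the same libraries are not replicates, and no p-value was computed. Named peaks were the 15 of highest signal, the 5 farthest from a TSS, spaces with 4 or more members, the 5 highest and lowest replicate ratios, up to 4 neighbours per gene list by signal, members at the limits of the rule, and words by rank of excess. Other members named by the gene that bounds them or by a word they hold were chosen after their values were seen. The members, lists and words were chosen with earlier results of these data known. Python 3 with pandas and SciPy was used.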

Additional observations from a re-analysis of the deposited data

How the results depend on the processing

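Of 75 recomputed values, 53 stayed within the replicate spread, the Wilson interval or, for counts, 1.5 times of the value reported, and 22 moved. The replicate spread was the standard deviation between the values from the 2 replicates' own lists. Those lists are also among the alternatives, so these counts are descriptions and do not measure robustness. Leaving out a replicate by using the other's own list gave 182 to 193 members, or 9.07% to 11.0% of arm peaks. Replicate ratios were 1.26 to 1.55 and median TSS distances 2102 to 2207 bp. Median signals were 62.5 to 90.6, but these are signals within a single replicate and not the pooled signal reported above. A global IDR of 0.001 left 113 members (9.50% of peaks) with a median signal of 181 and distance of 2215 bp. A TSS limit of 1000 bp gave 8.81% of peaks and a distance of 3440.5 bp, and a limit of 2000 bp gave 166 members, 6.36% and 4721.5 bp. With protein-coding genes alone, 14.6% of peaks were intergenic, at a median of 3820 bp. The distance was 2547 bp in the larger list and 2140 bp with transposable elements counted as genes. The GGTGGCG share was 8.47% in the 118 windows without soft-masked bases (flanks 0.483%), and above its flanks under all alternatives. The word was featured for its excess in these members and the alternatives share peaks with them, so that direction was largely built in. In the 114 intergenic peaks of the larger list that overlap no member, it lay at 2.63% (0.899 to 7.45; flanks 1.75%, 0.684 to 4.42), with intervals that overlap. Members bounded by a listed gene on either side numbered 46 in place of 27 by nearest TSS, and the latter was 25 without shared regions, an alternative added after seeing the data. The causes of these moves follow from the rules where a limit or gene set changed, and were otherwise not tested. No paired analysis was possible because the series has 1 group. With 2 replicates, unknown depth and no control library analysed, no member's signal can be set against background, and the shares carry counting error over peaks only.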
